A study of Brassica napus with 6 samples.

Results

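Aldehyde dehydrogenases (ALDH) oxidise reactive aldehydes to carboxylic acids with NAD or NADP as the electron acceptor. In plants their substrates include the aldehydes that form when membrane lipids are oxidised, and intermediates of amino acid breakdown, of the GABA shunt and of the phenylpropanoid pathway. In Arabidopsis several of these genes respond to drought, salt or abscisic acid, and ALDH7B4 is among the best known of them. The genes described here are 10 stress-related members of that family. They were found as probe sets whose single gene symbol in the array annotation was a listed name, with the brightest probe set standing for a gene. Of the 10 genes, 4 were matched, among 13350 genes with a single-symbol probe set on the array. These 4 were ALDH7B4, ALDH3F1, ALDH2C4 and ALDH22A1, each with 1 probe set. The other names (ALDH3H1, ALDH3I1, ALDH2B4, ALDH2B7, ALDH5F1 and ALDH12A1) matched no single-symbol probe set and were not analysed here. No values are therefore given for the mitochondrial ALDH2B enzymes, succinic semialdehyde dehydrogenase of the GABA shunt (ALDH5F1) or the proline breakdown enzyme ALDH12A1. Probe sets for these genes may lie among those with no symbol or with several. The family was chosen by the log2 difference of ALDH7B4 between the groups, which was already known when the list was drawn up, and the probe sets were selected on mean signal. For that reason the values of ALDH7B4 are given as a description, without a test.

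Root samples came from Brassica napus (oilseed rape) of the cultivar Nourin No.16 after 2 days in hydroponic solution. The Cd plus GSH group received 10 µM cadmium chloride with reduced glutathione (GSH), the cellular thiol tripeptide, and the Cd only group received 10 µM cadmium chloride. Each group had 3 biological replicates, 1 array each. The labels do not say whether these came from separate containers. The p-values set a group difference against the spread between these samples. They cannot show whether that spread includes differences between containers. Cadmium was thus present in every sample, and plants without cadmium were not analysed here. The labels give GSH as 100 mM, a figure that could not be checked here, and give the plants' age both as 4 weeks after germination and as seedlings of 2 to 3 weeks, with 6 plants grown per container. The array was built for Arabidopsis thaliana, so each gene name is that of the Arabidopsis gene a probe set was designed for, and oilseed rape copies of a gene were not separated. In RNA from whole roots, fewer cells of a type and less RNA per cell cannot be told apart.

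Values are log2 signals, on which a step of 1 is a doubling. Of 22746 probe sets, 20318 (89.3%) had the same value on all 6 arrays to within 0.01, and 2428 varied. The highest of 27 control probe sets for bacterial genes averaged 6.05 and serves as a mark of background; among the 9686 probe sets with a higher mean, 17.8% varied. Across the varying probe sets, correlations between arrays ran from 0.982 to 0.990 within the Cd plus GSH group, from 0.951 to 0.979 within the Cd only group and from 0.910 to 0.974 between groups. The green-tissue markers RCA, at 6.04, and LHCB4.1, at 6.07, lay at the background mark and were constant. They were 2 of 8 listed green-tissue markers, and the other 6 were not matched. Of 4 root hair markers, EXPA7 was constant at 6.50 and EXPA18 averaged 6.67 in Cd plus GSH roots and 6.64 in Cd only roots. Markers of endodermis, xylem, phloem, dividing cells and root transporters were not matched.

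ALDH7B4 was the single matched member whose signal varied, and it was lower in all Cd plus GSH roots than in any Cd only root. This enzyme, AT1G54100 on Arabidopsis chromosome 1, belongs to the family related to animal antiquitin and is induced by dehydration and salt in Arabidopsis. Its log2 signal was 6.41, 6.68 and 7.01 in Cd plus GSH replicates 1, 2 and 3, against 7.29, 8.86 and 7.80 in Cd only replicates 1, 2 and 3. The groups did not overlap, with 0.28 between the highest Cd plus GSH array and the lowest Cd only array. Cd only replicate 2 stood well above the rest, and all 6 arrays lay above the background mark. The means were 6.70 ± 0.30 (SD, n = 3) in Cd plus GSH roots and 7.98 ± 0.80 (SD, n = 3) in Cd only roots. The log2 difference was -1.28, a signal 2.43-fold lower with GSH. Its limma SE of 0.43 takes no account of the gene having been listed for this difference. Among the varying probe sets 18.7% did not overlap between groups in either direction and 9.84% did not overlap and were lower with Cd plus GSH. This difference was the 6th most negative of the 2428, which restates how the gene came to be listed.

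**Figure D1:**
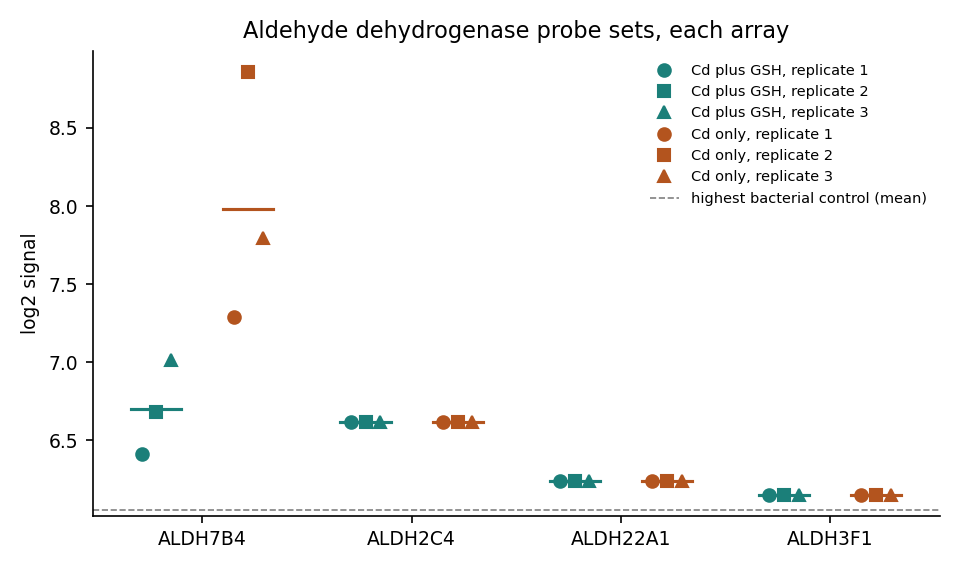
Log2 signal (vertical axis) of the 4 matched aldehyde dehydrogenase genes (horizontal axis) on each array; points are arrays, marked by replicate number, solid lines are group means and the dashed line is the highest bacterial control at 6.05. ALDH7B4 lies at 6.41 to 7.01 in Cd plus GSH roots and at 7.29 to 8.86 in Cd only roots, while the other genes have 1 value on all 6 arrays.

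The size of the ALDH7B4 difference depended on which arrays were used, and its direction did not. With each array left out in turn it ran from -1.63 to -0.84, that is, from 3.09-fold to 1.79-fold lower with GSH. The smallest difference, -0.84, came from leaving out Cd only replicate 2, and the largest, -1.63, from leaving out Cd only replicate 1. Without Cd plus GSH replicate 1, 2 or 3 it was -1.14, -1.27 or -1.44. Because the groups did not overlap, the direction could not turn when a single array was removed.

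**Figure D2:**
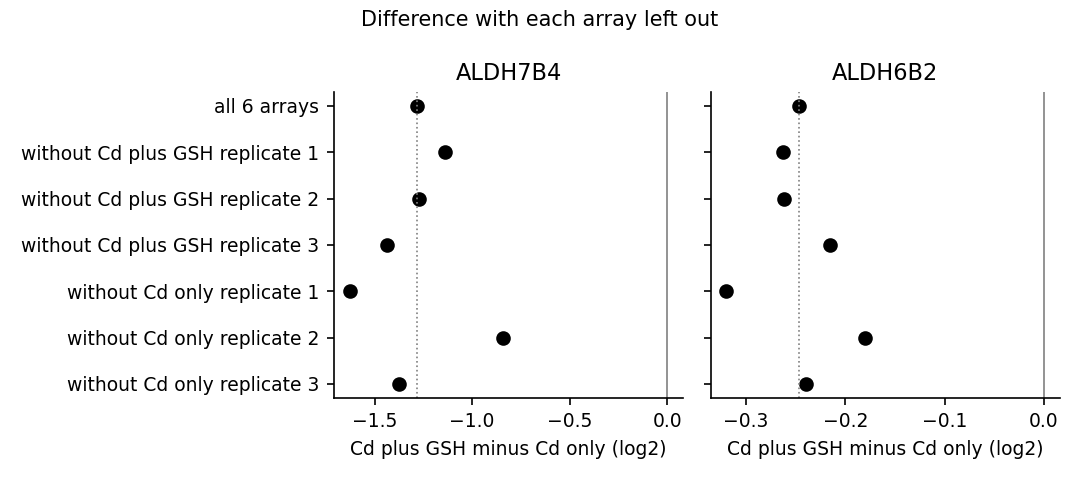
Log2 difference, Cd plus GSH minus Cd only (horizontal axis), of ALDH7B4 (left) and ALDH6B2 (right) with all 6 arrays and with each array left out (vertical axis); dotted lines mark the value from all arrays and solid lines mark 0, and the horizontal scales differ. ALDH7B4 lies between -1.63 and -0.84 and ALDH6B2 between -0.32 and -0.18.

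The other 3 matched members held a single value on all arrays, so the deposited values cannot show a response of these genes in either direction. ALDH2C4 (AT3G24503), which in Arabidopsis oxidises coniferaldehyde and sinapaldehyde to ferulic and sinapic acid, stood at 6.62 on each Cd plus GSH array and each Cd only array. ALDH22A1 (AT3G66658), of a plant ALDH family with less well known substrates, stood at 6.24 on all 6 arrays. ALDH3F1 (AT4G36250), of the family 3 enzymes that act on a range of aldehydes, stood at 6.15 on all 6 arrays. The largest range among the 3 genes was 9.0e-09, the size of rounding. All 3 lay above the background mark on each array, ALDH3F1 by 0.10, ALDH22A1 by 0.18 and ALDH2C4 by 0.57.

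The 6 listed ALDH genes outside the stress-related group gave a similar split, with 1 varying gene among 4 matched. ALDH6B2 (AT2G14170), methylmalonate semialdehyde dehydrogenase of valine breakdown, had log2 signals of 7.18, 7.18 and 7.09 in Cd plus GSH replicates 1, 2 and 3, against 7.25, 7.53 and 7.41 in Cd only replicates 1, 2 and 3. The groups did not overlap, though only 0.07 separated the nearest arrays. Its difference of -0.25 (SE 0.08) had a limma 95% interval from -0.44 to -0.05 and did not pass adjustment over all varying probe sets (limma adjusted p = 0.311). In that fit 0 of 2428 varying probe sets (0%) passed an adjusted p of 0.05, with a smallest adjusted p of 0.0791, and a plain two-sample test likewise gave 0. At an unadjusted p under 0.05, which ALDH6B2 met with 0.0214, there were 312 in limma (12.9%) and 254 in the plain test. The aminoaldehyde dehydrogenases ALDH10A8, at 6.89, and ALDH10A9, at 6.83, and the glyceraldehyde-3-phosphate dehydrogenase ALDH11A3, at 5.91 and below the background mark, were constant. The proline synthesis enzymes P5CS1 and P5CS2 were not matched. Over both lists, 8 of 16 ALDH genes were matched and 6 of these 8 were constant. Over all probe sets 89.3% were constant, and among those above the background mark 17.8% varied.

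Genes that work beside these enzymes were read from lists drawn up with earlier results known. Of 10 genes of branched-chain amino acid breakdown, a list that includes ALDH6B2, 5 were matched. All 5 varied, where 10.7% of all probe sets and 17.8% of those above the background mark did. All 5 had lower means in Cd plus GSH roots, though MCCB differed by only -0.04 and ETFQO by -0.02. None of the 5 passed the adjusted test. Over all varying probe sets 50.7% were lower. Their median difference was -0.25, against -0.00072 over all varying probe sets, and without Cd only replicate 2 the median of the 5 genes was -0.077. MCCA, which carries the biotin of methylcrotonyl-CoA carboxylase in the breakdown of leucine and whose difference was known beforehand, had signals of 6.46, 6.30 and 6.41 in Cd plus GSH replicates 1, 2 and 3, against 7.15, 7.98 and 6.66 in Cd only replicates 1, 2 and 3. As with ALDH7B4, the groups did not overlap and Cd only replicate 2 was highest. Without that array the MCCA difference was -0.51, against -0.87 with all arrays.

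IVD, isovaleryl-CoA dehydrogenase of the same pathway, had signals of 6.96, 6.95 and 7.04 in Cd plus GSH replicates 1, 2 and 3, against 7.30, 7.69 and 6.83 in Cd only replicates 1, 2 and 3. Its groups overlapped, since Cd only replicate 3 lay below every Cd plus GSH array, and its difference was -0.29 (SE 0.22, limma adjusted p = 0.656). Without Cd only replicate 2 it was -0.08, and without Cd only replicate 3 it was -0.51. MCCB, the partner subunit of MCCA, differed by -0.04 (SE 0.03), and ETFQO, which passes electrons from these dehydrogenases to ubiquinone, by -0.02 (SE 0.02). With 1 array left out MCCB ran from -0.068, without Cd only replicate 3, to -0.015, without Cd only replicate 2. ETFQO was at -0.0096 without Cd only replicate 3 and, with all arrays, at -0.0042 after median centring. The ETFQO groups did not overlap, but its 6 values lay within 0.04.

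**Figure D3:**
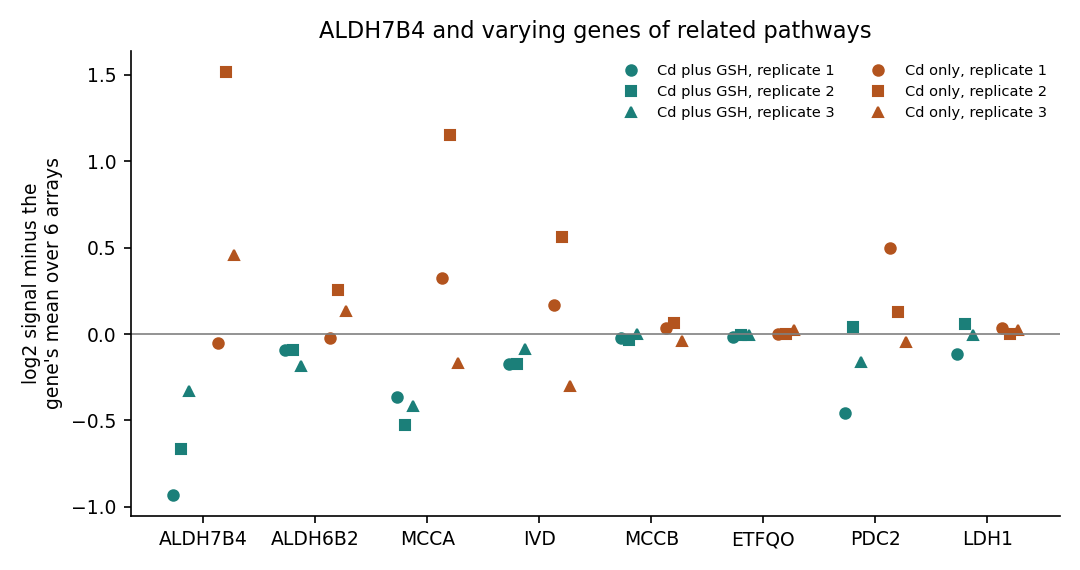
Log2 signal minus the gene's mean over the 6 arrays (vertical axis) for ALDH7B4, ALDH6B2, 4 further genes of branched-chain amino acid breakdown, and PDC2 and LDH1 of fermentation (horizontal axis); points are arrays, marked by replicate number. Cd only replicate 2 is the highest array for ALDH7B4, ALDH6B2, MCCA, IVD and MCCB, and Cd only replicate 1 is the highest for PDC2.

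Pyruvate decarboxylase makes the acetaldehyde that ALDH enzymes oxidise to acetate, and 3 of 7 genes around that step were matched. PDC2, a pyruvate decarboxylase, had signals of 6.77, 7.27 and 7.07 in Cd plus GSH replicates 1, 2 and 3, against 7.72, 7.35 and 7.18 in Cd only replicates 1, 2 and 3. The groups overlapped, and the difference of -0.38 (SE 0.19) was not significant (limma adjusted p = 0.477). Without Cd only replicate 1 it was -0.23 and without Cd plus GSH replicate 1 it was -0.25. LDH1 (AT4G17260), a lactate dehydrogenase, differed by -0.04 (SE 0.05), and ACS, the acetyl-CoA synthetase that uses acetate, was constant at 7.17.

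Of the matched genes in the remaining pathway lists, CCR2 alone varied. Of all probe sets 10.7% varied, and of those above the background mark 17.8% did. The deposited values of the constant genes cannot show a response in either direction. The alkenal reductases AER, at 6.02, and AOR, at 6.12, were the matched genes among 8 carbonyl reductases and glyoxalases, and both were constant. The dehydration and abscisic acid list, which holds genes often induced along with ALDH7B4 in Arabidopsis, had 2 of 25 genes matched, COR47 at 6.05 and COR15A at 5.86, both constant and at or below the background mark. The proline dehydrogenase PDH2 was the matched gene of 6 in proline metabolism and was constant at 6.68. CCR2, a cinnamoyl-CoA reductase and the matched gene of 11 in the phenylpropanoid list, differed by 0.02 (SE 0.02, limma adjusted p = 0.792). No gene of the GABA shunt or of the lipoxygenase pathway was matched.

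ALDH7B4 was among the most variable probe sets within a group. The SD between its Cd plus GSH arrays, 0.30, ranked 31st of 2428 varying probe sets, and the SD between its Cd only arrays, 0.80, ranked 10th. These ranks come from the same values as the difference by which the gene was listed. The Cd only SD was 2.67 times the Cd plus GSH SD, and 488 varying probe sets (20.1%) had a ratio at least as large. Over all varying probe sets the Cd only SD was the larger in 59.8%, with medians of 0.038 in the Cd plus GSH group and 0.045 in the Cd only group. In the branched-chain list it was the larger in 5 of 5 genes. Cd only replicate 2, the array highest for ALDH7B4, was the highest array in 15.0% of the varying probe sets. The share was 20.6% for Cd only replicate 1, 19.0% for Cd only replicate 3 and 14.1% to 15.8% for the Cd plus GSH arrays. In the branched-chain list Cd only replicate 2 was highest for 4 of 5 genes. The part of that array in these results was not tested beyond the values without it.

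**Figure D4:**
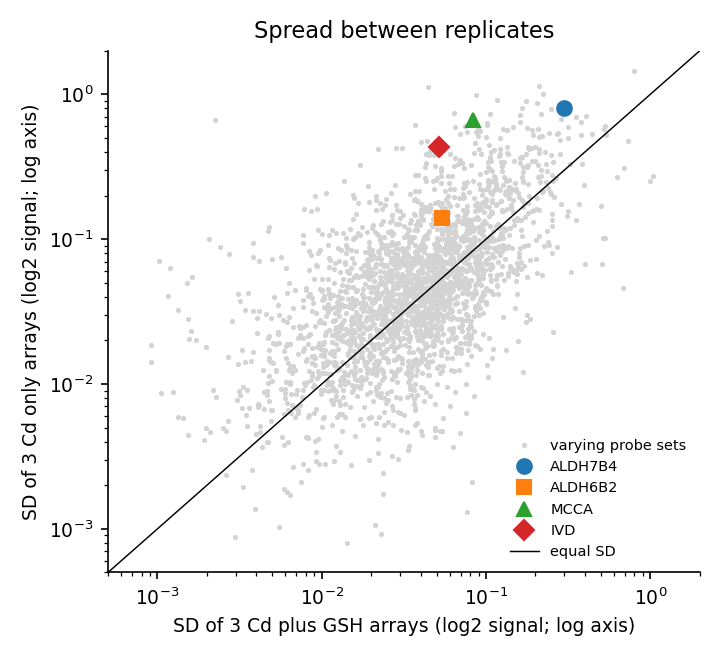
SD between the 3 Cd plus GSH arrays (horizontal log axis) against SD between the 3 Cd only arrays (vertical log axis) of the log2 signal, for the 2428 varying probe sets in grey with 4 genes marked; the line marks equal SD. ALDH7B4 (0.30 and 0.80), ALDH6B2 (0.05 and 0.14), MCCA (0.08 and 0.67) and IVD (0.05 and 0.43) lie above the line.

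The genes whose signal followed ALDH7B4 most closely were sought among 91 single-symbol genes that ranged over at least 0.5 and averaged above the background mark. These correlations are over 6 arrays, describe likeness and carry no test, and since both treatment groups enter them they hold the group difference as well. The highest were 0.95 for AT5G03610, 0.95 for AT1G07040, 0.94 for FMO, 0.94 for AT5G25560 and 0.91 for the expansin-like gene EXLB1. When each group was centred on its own mean, the correlations of these 5 genes with ALDH7B4 were 0.89, 0.90, 0.87, 0.83 and 0.76. For ALDH7B4, Cd only replicate 2 lay furthest from its group mean, at 8.86 against 7.98. No correlation was computed without that array. The genes were picked for high correlation over the same arrays, so the centred values are not independent of that choice. The largest of these genes by change, EXLB1, had signals of 6.10, 6.72 and 7.56 in Cd plus GSH replicates 1, 2 and 3, against 7.52, 8.44 and 8.18 in Cd only replicates 1, 2 and 3, and its groups overlapped slightly. AT1G07040 had 7.23, 7.34 and 7.69 in Cd plus GSH replicates 1, 2 and 3, against 7.91, 8.74 and 7.73 in Cd only replicates 1, 2 and 3, without overlap.

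The most opposite patterns were those of AT3G07110, a protein of the large ribosomal subunit, at -0.99, AT2G36160, a protein of the small ribosomal subunit, at -0.98, and AT4G22460, of the lipid-transfer protein family, at -0.98. Centred within groups these were -0.98, -0.97 and -0.94, again for genes picked on the same arrays. AT2G36160 had 8.17, 8.18 and 7.94 in Cd plus GSH replicates 1, 2 and 3, against 7.98, 7.48 and 7.79 in Cd only replicates 1, 2 and 3. It was lowest on Cd only replicate 2, the array on which ALDH7B4 was highest, and its groups overlapped. Among the list genes that met the same limits, the correlation with ALDH7B4 was 0.88 for MCCA, 0.72 for IVD and 0.43 for PDC2, and 0.70, 0.62 and -0.22 when centred within groups.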

How the data were processed

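Root RNA was hybridised to Arabidopsis ATH1 arrays, per the platform annotation. The authors deposited 1 value per probe set and array, taken here as log2 from its range; the submitters' processing notes name R 2.7.2. The sources used here do not state how background, normalisation and probe-set summary were handled. With no scan dates or slides recorded, no batch could be tested. Of 22810 probe sets, 64 controls were kept apart. The annotation gave 1 symbol for 13513 tested probe sets, several for 503 and none for 8730. Context lists were matched by symbol or locus, with Entrez neighbours on the same chromosome.

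Differences are Cd plus GSH minus Cd only, from lmFit and eBayes in limma 3.58.1 (R 4.3.3) on the 2428 probe sets ranging over more than 0.01, with Benjamini-Hochberg adjustment at 0.05; the fit was tested on simulated data. The number of arrays limits the precision. Members, lists and the likeness rule (5 highest and 3 lowest correlations) were chosen with earlier results of these data known. Alternatives covered scaling, filters, moderation, the replicate number, the plain test and each array left out.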

Additional observations from a re-analysis of the deposited data

How the results depend on the processing

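The ALDH7B4 difference was -1.28 with quantile normalisation, -1.27 with median centring and -1.63 to -0.84 with 1 array left out. Its groups did not overlap under either scaling. The choice of probe sets, the variance moderation, the plain test, the replicate block, the floor below all its values and averaging its single probe set leave this difference as it is by construction. Scaling moved the constant members by about 0.01 or less. The count of adjusted limma calls, 0 of 2428, was 42 (26 higher, 16 lower) when all probe sets entered the fit, 5 (3 higher, 2 lower) for a range over 0.1 and 3 (1 higher, 2 lower) with quantile normalisation. It ran from 0 to 13 with 1 array left out (0 to 6 higher, 0 to 7 lower), and the 13 came without Cd only replicate 3; the cause was not tested. The list genes given an adjusted p passed under none of these alternatives, and the adjusted p of ALDH6B2 ran from 0.121 to 0.789. With 1 array left out the LDH1 difference ran from -0.081 to 0.0056, turning positive without Cd plus GSH replicate 1, and that of EXPA18 from -0.0049 to 0.11, turning negative without Cd only replicate 1 (-0.0049) and replicate 2 (-6.8e-05). Same-numbered arrays had correlations of -0.11, -0.21 and 0.13 between their deviations from the group means, and not every array correlated best with its own number. With 3 arrays per group the deviations constrain one another, so these correlations cannot decide whether the replicate numbers pair the samples. With the replicate block, 0 probe sets passed, and the ALDH7B4 difference of -1.28 cannot change. Of the 10 listed genes, 6 were not matched and 3 were constant, so the family is described through 1 varying gene on 3 arrays against 3. The unmatched genes may have probe sets with no symbol or with several, and their response was not examined.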
